A study of Mus musculus with 6 samples.

Results

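Of 25638 mouse genes with a deposited expression value, 10727 reached 1 FPKM (fragment counts scaled to gene length and to the counted reads of the library) in at least 2 of 6 libraries, and in 3643 of these (34.0%) both myeloid co-cultures of CD8+ T cells stood on the same side of the vehicle cultures. A gene was taken when all 4 co-culture values lay above both vehicle values (1815 genes, 16.9% of those tested) or below both (1828 genes, 17.0%). The T cells were OT-I cells of wild-type genotype, which carry a transgenic receptor for a peptide of ovalbumin. All 3 groups received OVA257-264 peptide for 48 hours and differed in the partner: vehicle, cells that the submitters name TANs, or cells that they name TAMos. TANs were sorted from spleen as CD11b+Ly6G+Ly6Clow and TAMos as CD11b+Ly6G-Ly6Chigh, from mice bearing LLC tumours, a transplanted lung carcinoma line; the myeloid cells thus came from the spleen and not from the tumour. Taken singly, both TAN values lay above both vehicle values in 30.8% of tested genes and below in 33.3%. Both TAMo values lay above in 49.0% and below in 43.7%. Whether 34.0% on a shared side exceeds what these separate shares would give was not tested. T cells were purified again before RNA isolation, and each group has 2 libraries, which the sources used here do not tie to separate cultures or animals, so that errors and p-values cover only how far the 2 libraries of a group lie apart, possibly for technical reasons.

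A CD8+ T cell that meets its peptide leaves quiescence and grows. The factor MYC and interleukin-2 signalling through STAT5 raise ribosome production and nutrient uptake, and a stress programme led by the factor ATF4 supplies amino acid transporters and synthesis enzymes. Myeloid cells next to T cells can supply cytokines, compete for amino acids and hold back proliferation. The genes on one side of vehicle beside both myeloid populations are described first by size and then by these programmes.

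The side of a gene against vehicle and its distance from vehicle were used to choose the genes. They are given as values without a test. The size of the TAMo against TAN difference uses no vehicle value, but its standard error pools the spread of all 6 libraries. The TAN and TAMo values it compares also served to choose and rank the genes on a shared side. For those genes its p-values are therefore not independent of the choice. The difference was tested with limma over all 10727 genes on the log2(FPKM + 1) scale. Genes close to 1 FPKM appear less changed there than they are. On this scale 86.6% of all tested genes differed between TAMo and TAN (Benjamini-Hochberg adjusted p under 0.05), 46.0% with TAMo above and 40.6% with TAMo below.

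The libraries held between about 41600000 and 45300000 counted reads, as far as the steps between low values show, and TAMo replicate 1 is uncertain because even numbers made up 98.3% of its low read numbers and 60.3% to 63.6% of those elsewhere. Transcripts of the mitochondrial genome took 8.07% to 8.34% of all FPKM in vehicle and TAN libraries and 1.20% and 1.32% in TAMo libraries. Of 20 neutrophil markers none reached 1 FPKM in any library, S100a8 and S100a9 were listed at 0 throughout, and the markers summed to 0.294 to 0.325 FPKM with vehicle, 0.271 to 0.375 with TAN and 0.672 to 1.04 with TAMo. The 23 monocyte and macrophage markers summed to 36.7 to 39.2 FPKM with vehicle, 30.2 to 31.2 with TAN and 66.8 to 69.4 with TAMo, with 7 of them reaching 1 FPKM and the defining genes Lyz2, Csf1r, Adgre1 and Itgam at 0.182 FPKM or less everywhere. Other markers of that list were higher with TAMo. Ms4a4c stood at 5.48 and 4.98 FPKM with vehicle, 3.98 and 4.57 FPKM with TAN and 43.2 and 39.9 FPKM with TAMo, and Cd14 at 0.0852 and 0.0563, 0.0850 and 0.0284, and 2.84 and 3.17 FPKM. Vcan was at 0.0869 FPKM or less with vehicle and TAN and at 2.64 and 2.46 FPKM with TAMo, and Ccr2 at 0.123 FPKM or less against 0.289 and 0.364 FPKM. The part of myeloid RNA in the TAMo values was not tested. The 10 CD8 T cell markers found in the table summed to 2240 to 2390 FPKM in all libraries, with Thy1 the largest, at 677 to 811 FPKM. Single markers differed more. Cd2 stood at 189 and 203 FPKM with vehicle, 208 and 215 FPKM with TAN and 48.2 and 55.3 FPKM with TAMo. Cd5 stood at 93.8 and 92.3, 77.8 and 78.2, and 303 and 302 FPKM. In such bulk samples fewer cells of a type and less RNA per cell cannot be told apart.

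Most of the shared differences were small in the TAN cultures. The smaller of the 2 changes against vehicle, TAN or TAMo, had a median size of 0.14 on the log2 scale among the 1815 higher genes and 0.14 among the 1828 lower genes, and it was under 0.25 in 79.3% and 82.9% of them. It reached 0.5 in 52 higher and 50 lower genes and 1 in 3 and 1. The median TAN change was 0.15 in the higher and -0.14 in the lower genes, whereas the median TAMo change was 0.73 and -0.70. At the edge of the rule the separation was slight: Dcaf5 entered as higher with vehicle at 10.7 and 11.2 FPKM against TAN values of 11.4 and 11.2 FPKM, and Zfp750 with TAN values of 0.0414 and 0.0276 against vehicle values of 0.0276 and 0.0274 FPKM although it reached 26.0 and 27.1 FPKM with TAMo. Ly6a and Pcm1 just missed that side. Psmd4 and Tti1 entered as lower by a similarly narrow margin, and Lin37 and Banp just missed it. A gap of at least 0.1 between the nearest co-culture and vehicle values left 760 higher and 739 lower genes, and a gap of at least 0.5 left 26 and 25.

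Among higher genes with at least 5 FPKM in some group, Ttc39c, Lmna and Sdcbp2 had the largest smaller change. Ttc39c stood at 9.50 and 9.54 FPKM with vehicle, 22.5 and 23.2 FPKM with TAN and 54.3 and 50.2 FPKM with TAMo. Its mean was 2.40-fold higher with TAN and 5.49-fold higher with TAMo, log2 changes of 1.18 ± 0.049 and 2.34 ± 0.049 (SE). The 3 groups did not overlap. Lmna, which encodes the nuclear lamins A and C (GRCm38 chromosome 3, 88480147 to 88509956), stood at 5.35 and 4.95 FPKM with vehicle, 12.3 and 12.9 FPKM with TAN and 17.1 and 16.2 FPKM with TAMo. Its log2 changes were 1.14 ± 0.060 and 1.52 ± 0.060 (SE). Both co-cultures were thus more than 1 log2 unit above vehicle in this gene, and the TAMo libraries were the highest. Sdcbp2, the gene of syntenin-2 (chromosome 2, 151572622 to 151590005), stood at 10.4 and 9.81 FPKM with vehicle, 21.1 and 23.4 FPKM with TAN, and 91.0 and 91.2 FPKM with TAMo.

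Further genes at the top of the higher side encode an exchange factor for Rab proteins, an ETS family factor, a polyamine enzyme, a cytokine and an egress receptor. Dennd5a, the exchange factor gene, stood at 13 and 13.2 FPKM with vehicle, 26.5 and 26.2 FPKM with TAN and 35.5 and 34.4 FPKM with TAMo. Etv5, the ETS factor gene (chromosome 16, 22381309 to 22439719), had 4.01 and 4.15 FPKM with vehicle, 8.56 and 7.59 FPKM with TAN and 7.26 and 8.67 FPKM with TAMo. In Etv5 the TAN and TAMo values were interleaved, and both lay above vehicle. Smox encodes spermine oxidase, which breaks down the polyamine spermine (chromosome 2, 131491496 to 131525922). It had 43.3 and 41.4 FPKM with vehicle, 76.7 and 70.6 FPKM with TAN and 90.9 and 83.3 FPKM with TAMo. Il13, whose product acts in type 2 immunity (chromosome 11, 53631324 to 53634702), had 3.41 and 3.05 FPKM with vehicle, 5.79 and 6.67 FPKM with TAN and 7.04 and 6.63 FPKM with TAMo. S1pr1 encodes the sphingosine-1-phosphate receptor by which lymphocytes leave lymphoid tissue (chromosome 3, 115710433 to 115715072). It stood at 2.89 and 2.81 FPKM with vehicle, 5.67 and 5.42 FPKM with TAN and 7.88 and 8.48 FPKM with TAMo.

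The remaining 7 of the 15 leading higher genes had log2 changes of at least 0.63 with both partners. They were S100a6, a small calcium-binding protein gene, Atp2b4, the gene of a plasma membrane calcium pump, Slc4a11, a transporter gene, Ppp1r3b, which encodes a glycogen-targeting subunit of a phosphatase, Frmd4b, the glutathione transferase gene Gstm1 and the unnamed locus Gm43203. S100a6 stood at 2.41 and 3.09 FPKM with vehicle, 4.53 and 6.10 FPKM with TAN and 67.9 and 62.4 FPKM with TAMo. On the log2(FPKM + 1) scale its difference between the partners, 3.40, was the largest of the 30 leading genes, but with a pseudocount of 0.1 that of Npas4 was larger in size, at -4.71 against 3.61 for S100a6. Atp2b4 was the only one of the 15 that stood farther from vehicle with TAN than with TAMo and passed the test of that difference, with 4.71 and 4.33, 11.7 and 11.5, and 8.02 and 8.10 FPKM in vehicle, TAN and TAMo libraries.

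**Figure D1:**
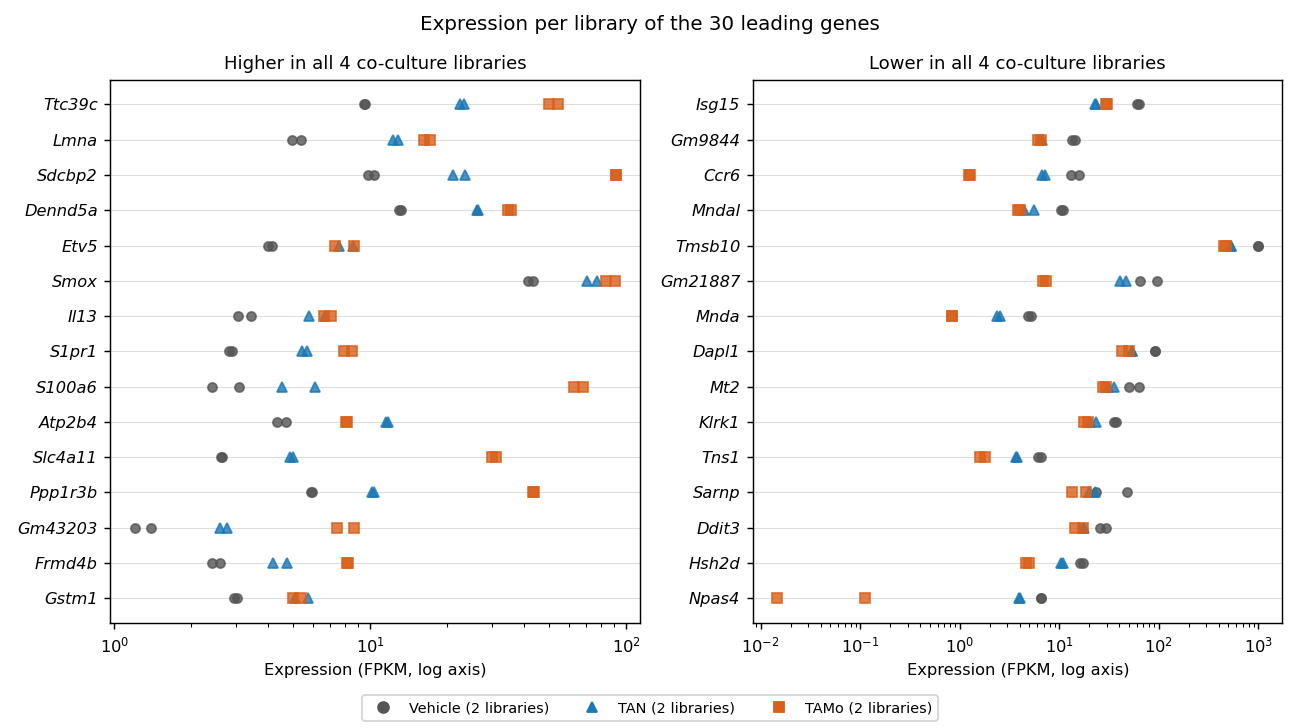
Expression in FPKM on a log axis for each of the 6 libraries, in the 15 higher (left) and 15 lower (right) genes with the largest smaller change; grey circles are vehicle, blue triangles TAN and orange squares TAMo. No co-culture value reaches a vehicle value of its gene, as the rule requires, but symbols may touch where the margin is narrow, as in Sarnp. The TAMo symbols of S100a6, at 67.9 and 62.4 FPKM, lie far beyond the TAN symbols, at 4.53 and 6.10 FPKM.

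On the lower side Isg15 led, and its promoter is shown with those of 2 other lower genes of interferon-inducible families and of the lower gene that was most alike in both co-cultures. Only promoters that hold matches are shown. Each stretch is the 150 bases before a RefSeq start site (GRCm38.p6), read 5′ to 3′ on the strand of the gene, which is the minus strand in all 4. Capitals mark matches to the core of the interferon-stimulated response element (GAAA, any 2 bases, GAAA) in the first 3, and to the E-box CACGTG in the last, searched on both strands. They lie at chr4:156200819-156200968, chr8:71537473-71537622, chr1:173880188-173880337 and chr3:95882229-95882378.
Isg15: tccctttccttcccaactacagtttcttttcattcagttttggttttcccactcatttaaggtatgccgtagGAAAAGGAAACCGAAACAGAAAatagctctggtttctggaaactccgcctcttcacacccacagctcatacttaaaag
Bst2: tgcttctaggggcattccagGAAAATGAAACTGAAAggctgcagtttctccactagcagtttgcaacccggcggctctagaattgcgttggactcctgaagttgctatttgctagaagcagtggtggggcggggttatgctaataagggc
Mndal: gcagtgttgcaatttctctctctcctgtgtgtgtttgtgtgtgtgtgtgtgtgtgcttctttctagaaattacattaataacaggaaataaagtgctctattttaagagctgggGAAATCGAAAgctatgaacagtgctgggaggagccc
Ciart: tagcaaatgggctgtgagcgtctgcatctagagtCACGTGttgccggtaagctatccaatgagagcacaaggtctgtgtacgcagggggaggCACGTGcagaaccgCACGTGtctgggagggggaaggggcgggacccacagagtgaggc

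Isg15 has 3 overlapping matches, which begin 78, 72 and 66 bases before the start, and Bst2 has 2, at 130 and 124 bases. Mndal has a further RefSeq start site that is not shown, with a match on the other strand 54 bases before it. In Ifih1, another lower interferon-stimulated gene, the match lies 32 bases after the start. For Mnda and Oasl2, also lower and interferon-inducible, no match to the element was recorded. Whether RefSeq promoters were found for these genes is not given here. At least 3 matches were found in 3 of 10638 promoters of tested genes (0.0282%), counted over windows of 300 bases, and at least 3 E-boxes, as in Ciart, in 17 (0.160%). Over all lower genes the element was no more common: 3.28% of 1798 promoters held it, against 2.6% of 1843 promoters of higher genes and 3.20% of all 10638. These counts cover 1451 of the lower, 1398 of the higher and 8358 of the tested genes, those found by symbol in the RefSeq table. The AP-1 letters TGANTCA occurred in 5.86% of promoters of higher genes, 3.56% of those of lower genes and 4.74% of all. TGACGTCA, the cyclic AMP response element, occurred in 2.93%, 4.84% and 3.24%. The shares of TTCNNNGAA (STAT), CACGTG (E-box), TTTNGCGC (E2F), the NF-kappaB motif (GGG, any 2 bases, TT, any base, CC) and TGATGNAAT (ATF4 composite) in all promoters were 7%, 10.3%, 2.56%, 5.47% and 0.423%, those in lower genes 7.68%, 10.1%, 2.84%, 5.73% and 0.445%, and those in higher genes 6.08%, 9.71%, 1.74%, 5.59% and 0.271%. A match is a description of letters and not of a bound site.

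Isg15 encodes a ubiquitin-like protein induced by interferon (chromosome 4, 156199424 to 156200818). It stood at 60.8 and 63.6 FPKM with vehicle, 23.1 and 22.9 FPKM with TAN and 30.1 and 29.7 FPKM with TAMo. The vehicle mean was 2.70-fold that of TAN and 2.08-fold that of TAMo, and the log2 changes were -1.40 ± 0.036 and -1.03 ± 0.036 (SE). It was the only lower gene at this level with both changes beyond 1, and TAN was the lowest group. Tmsb10, the gene of the actin-binding peptide thymosin beta 10 (chromosome 6, 72957347 to 72958748), was the most abundant of the 30: it stood at 999 and 987 FPKM with vehicle, 530 and 526 FPKM with TAN and 448 and 471 FPKM with TAMo. Gm9844, at 13.5 and 14.4 FPKM with vehicle and 6.09 to 6.72 FPKM in the co-cultures, shared 466 bases at 99.1% identity with Tmsb10, so that its reads may be those of Tmsb10. Both therefore count as 1 observation.

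Ccr6, Mndal and Mnda followed. Ccr6, the receptor gene for the chemokine CCL20 (chromosome 17, 8236043 to 8257141), stood at 13.2 and 15.6 FPKM with vehicle, 7.20 and 6.65 FPKM with TAN and 1.24 and 1.27 FPKM with TAMo. Its order was the same in every library pair, vehicle over TAN over TAMo. Mndal and Mnda belong to the interferon-inducible Ifi200 family. Mndal had 10.8 and 10.4 FPKM with vehicle, 5.62 and 4.47 FPKM with TAN and 3.99 and 3.81 FPKM with TAMo, and Mnda 5.18 and 4.84, 2.55 and 2.39, and 0.844 and 0.833 FPKM. Mndal shares 776 bases at 95.7% identity with Ifi204, so its value is uncertain.

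The metallothionein gene Mt2, the stress factor gene Ddit3 and the receptor gene Klrk1 were also lower with both partners. Mt2 (chromosome 8, 94172664 to 94173568) stood at 50.5 and 63.5 FPKM with vehicle, 35.4 and 31.0 FPKM with TAN and 27.6 and 29.3 FPKM with TAMo. Ddit3, which encodes CHOP (chromosome 10, 127290774 to 127296288), stood at 25.7 and 29.7 FPKM with vehicle, 17.5 and 17.4 FPKM with TAN and 17.2 and 14.4 FPKM with TAMo. Klrk1, which encodes the activating receptor NKG2D (chromosome 6, 129610323 to 129623864), stood at 36.8 and 35.8, 23.2 and 20.3, and 17.6 and 19.3 FPKM. Each of these 3 genes was lowest in TAMo libraries, with the TAN libraries close above.

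The others of the 15 were Dapl1, the tensin gene Tns1, the adaptor gene Hsh2d, the activity-induced factor gene Npas4, Sarnp and Gm21887. Npas4 stood at 6.61 and 6.56 FPKM with vehicle and 4.02 and 3.90 FPKM with TAN, and it was at 0.111 and 0.0146 FPKM with TAMo. Sarnp, at 47.8 and 23.5 FPKM with vehicle and 13.5 to 22.9 FPKM in the co-cultures, rested on a narrow margin at vehicle replicate 2, and 433 of its bases are 99.1% identical to Gm6563. Gm21887 is identical over 529 bases to Gm47283, so reads of these cannot be assigned.

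Whether the co-cultures stood equally far from vehicle was asked with the TAMo against TAN test. Which partner is called farther also rests on the side against vehicle, which was not tested. Of the 3643 genes on a shared side, TAMo stood farther from vehicle than TAN in 2961 and TAN farther in 91 (limma, adjusted p under 0.05), and 591 (16.2%) did not pass. The 83.8% that passed lie near the 86.6% of all tested genes. How often TAMo stood farther among all tested genes is not given here, so the split of 2961 and 91 is not particular to the shared genes. Over all tested genes both TAMo values lay above vehicle in 49.0% and below in 43.7%, and both TAN values in 30.8% and 33.3%. Of the 69 genes whose smaller change was at least 0.5 and whose highest group mean reached 5 FPKM, 38 higher and 31 lower, TAMo stood farther in 52 and TAN in 4, and 13 did not pass. Among the leading genes the TAMo minus TAN difference was 3.40 for S100a6 (95% interval 3.09 to 3.71, limma adjusted p = 1.76e-07), -1.81 for Ccr6 (-2.02 to -1.60, 6.26e-07), 0.38 for Lmna (0.24 to 0.52, 0.000577) and -0.20 for Tmsb10 (-0.27 to -0.13, 0.000434). For Atp2b4 it was -0.48 (-0.62 to -0.33, 0.000164) and for Isg15 0.37 (0.28 to 0.45, 3.98e-05). These last are the 2 of the 30 leading genes in which TAN was farther from vehicle by the test.

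In 372 of the 591 genes that did not pass, the 95% interval of the difference lay within 0.25 of 0, 185 of them higher and 187 lower than vehicle. The 6 most alike genes with a smaller change of at least 0.5 were Ciart, Ppt1, Ikzf2, Etv5, Gm9844 and Gstm1. Ciart, a repressor of the circadian clock (chromosome 3, 95878503 to 95882251), stood at 20.5 and 19.9 FPKM with vehicle, 13.1 and 12.7 FPKM with TAN and 12.3 and 13.6 FPKM with TAMo. Its co-culture values were interleaved, and the interval of the difference ran from -0.14 to 0.14. Ppt1, the gene of a lysosomal thioesterase that removes palmitate from proteins (chromosome 4, 122836242 to 122859175), stood at 19.6 and 22.0, 31.3 and 33.7, and 33.9 and 31.3 FPKM, with an interval of -0.16 to 0.16. Ikzf2, which encodes the transcription factor Helios (chromosome 1, 69531214 to 69687245), stood at 6.22 and 6.59, 9.74 and 9.71, and 9.17 and 10 FPKM, with an interval of -0.17 to 0.13. The intervals were -0.24 to 0.20 for Etv5 and -0.24 to 0.13 for Gstm1. These 6 were picked for their small difference, so that intervals around 0 follow from the choice. Gm9844 is no separate case, since its reads may be those of Tmsb10, which differed between the partners.

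**Figure D2:**
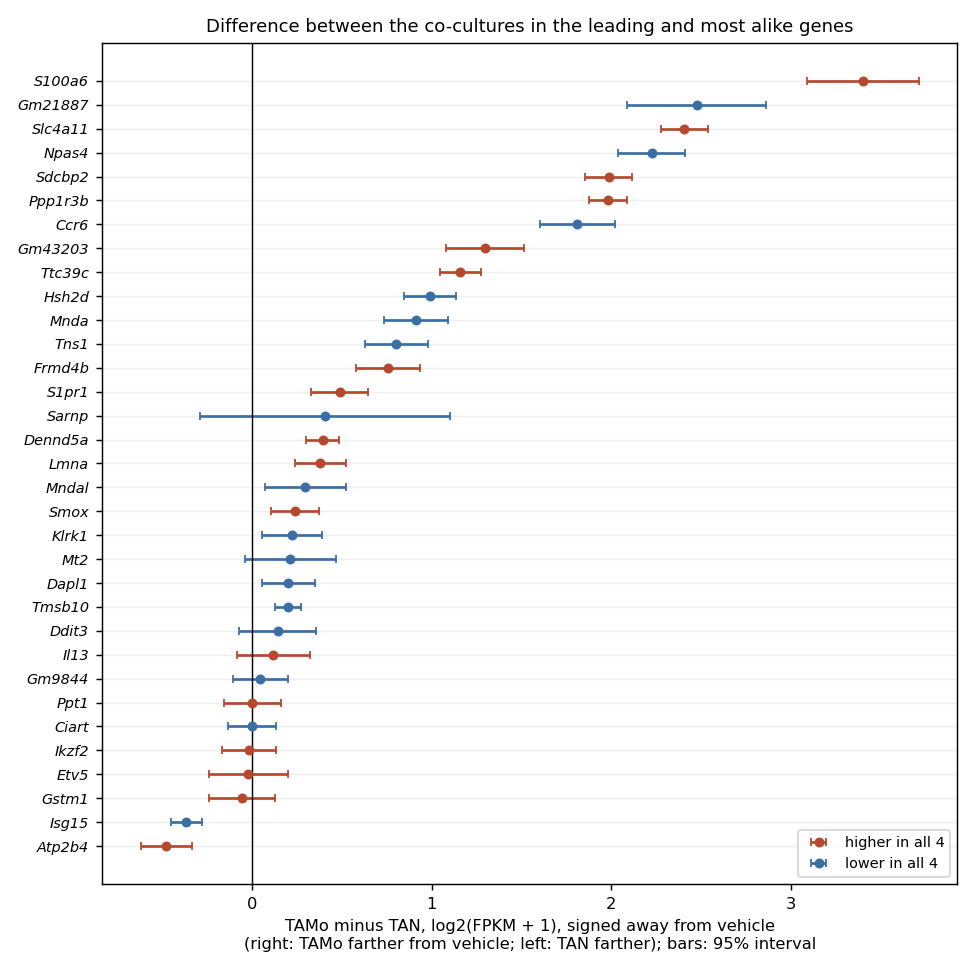
TAMo minus TAN difference in log2(FPKM + 1), signed so that values to the right of 0 mean TAMo farther from vehicle, for the leading and the most alike genes; points are limma estimates from 2 libraries per group, bars 95% intervals, red genes higher and blue genes lower than vehicle. S100a6 lies farthest right at 3.40, Ciart and Ppt1 sit on 0, and Atp2b4 and Isg15 are the genes whose interval lies wholly to the left.

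Genes of growth and stress programmes were found on the lower side. Of 44 tested genes of ribosome biogenesis, 28 were lower in all 4 co-culture libraries and none was higher (63.6% lower, against 17.0% of all tested genes), with median log2 changes of -0.12 with TAN and -0.71 with TAMo. Both TAN values lay below vehicle in 33 of the 44, and both TAMo values in 36. In 22 of them (50.0% of the list, against 11.6% of all tested genes) the smaller change was at least 0.1. Ppan, needed for the large ribosomal subunit, stood at 322 and 321 FPKM with vehicle, 244 and 237 FPKM with TAN and 130 and 126 FPKM with TAMo. Grwd1, a histone-binding assembly factor, stood at 62.9 and 64.3, 49.0 and 47.6, and 31.5 and 27.6 FPKM, and Nop2, a ribosomal RNA methyltransferase, at 210 and 217, 170 and 170, and 112 and 111 FPKM. In these 3 genes TAN lay between vehicle and TAMo in every library. Myc, the factor that drives this programme, had 423 and 425 FPKM with vehicle, 353 and 354 FPKM with TAN and 292 and 296 FPKM with TAMo. Of 30 cytosolic ribosomal protein genes 12 were lower and none higher, but only in 4 was the smaller change at least 0.1.

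Of 36 tested genes of the amino acid starvation response and ATF4, 21 were lower in all 4 (58.3%, against 17.0% of all tested genes), and the only higher one was Ddit4, an inhibitor of the growth kinase mTORC1. The list's median log2 changes were -0.11 with TAN and -1.37 with TAMo, against -0.005 and 0.057 over all tested genes. In 9 of the 36 (25%, against 2.92% of all tested genes) the smaller change was at least 0.25. Beside Ddit3, the factor gene Cebpb stood at 38.0 and 33.6 FPKM with vehicle, 25 and 22.0 FPKM with TAN and 12.3 and 10.3 FPKM with TAMo. Cth, an enzyme of cysteine synthesis, stood at 30.8 and 30.1, 20.5 and 20.6, and 2.06 and 1.97 FPKM, and the pseudokinase gene Trib3 at 27.3 and 27.4, 19.5 and 17.8, and 4.05 and 3.87 FPKM. These enzymes and factors shared a side but not a size: the TAMo minus TAN difference was -2.84 for Cth (limma adjusted p = 3.37e-09) and -0.14 for Ddit3, which did not pass (95% interval -0.36 to 0.07, adjusted p = 0.175). Atf4 itself was lower by little, at 473 and 470 FPKM with vehicle, 422 and 425 FPKM with TAN and 457 and 445 FPKM with TAMo. Ddit4 stood at 97.9 and 97.5, 132 and 128, and 606 and 589 FPKM.

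Of 30 chaperone, heat shock and unfolded protein response genes, 13 were lower and 1, Canx, was higher (43.3% lower), and in 9 of the 13 the smaller change was at least 0.1. Herpud1, a component of protein disposal at the endoplasmic reticulum, stood at 97.9 and 97.9 FPKM with vehicle, 74.8 and 73.8 FPKM with TAN and 38.6 and 36.3 FPKM with TAMo, and Hspa5, the chaperone BiP, at 607 and 622, 477 and 493, and 381 and 379 FPKM. Of 31 genes of cholesterol and fatty acid synthesis 11 were lower and none higher (35.5% lower). Of 27 proteasome genes 11 were lower and none higher (40.7% lower, against 17.0% of all tested genes). Both TAN values lay above vehicle in 12 of the 31 and below in 11, and above in 5 of the 27 and below in 11. Over all tested genes these shares were 30.8% and 33.3%. Both TAMo values lay below vehicle in 29 of the 31 and in all 27. Median TAN changes over these lists were 0.004 and -0.015. Fasn, the fatty acid synthase gene, was the only 1 of these lists with a smaller change of at least 0.25, with log2 changes of -0.30 with TAN and -1.69 with TAMo. Of 38 DNA replication genes 14 were lower (36.8%) and of 38 mitosis genes 9 (23.7%). All 38 genes of each list had both TAMo values below both vehicle values, as had 43.7% of all tested genes, whereas both TAN values were above vehicle in 13 and 18 of them and below in 14 and 9. None of these replication or mitosis genes had a smaller change of 0.25. Of 13 transcripts of the mitochondrial genome, 6 were lower (46.2%), each by 0.05 to 0.20 with TAN, and all 13 had both TAMo values below vehicle.

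**Figure D3:**
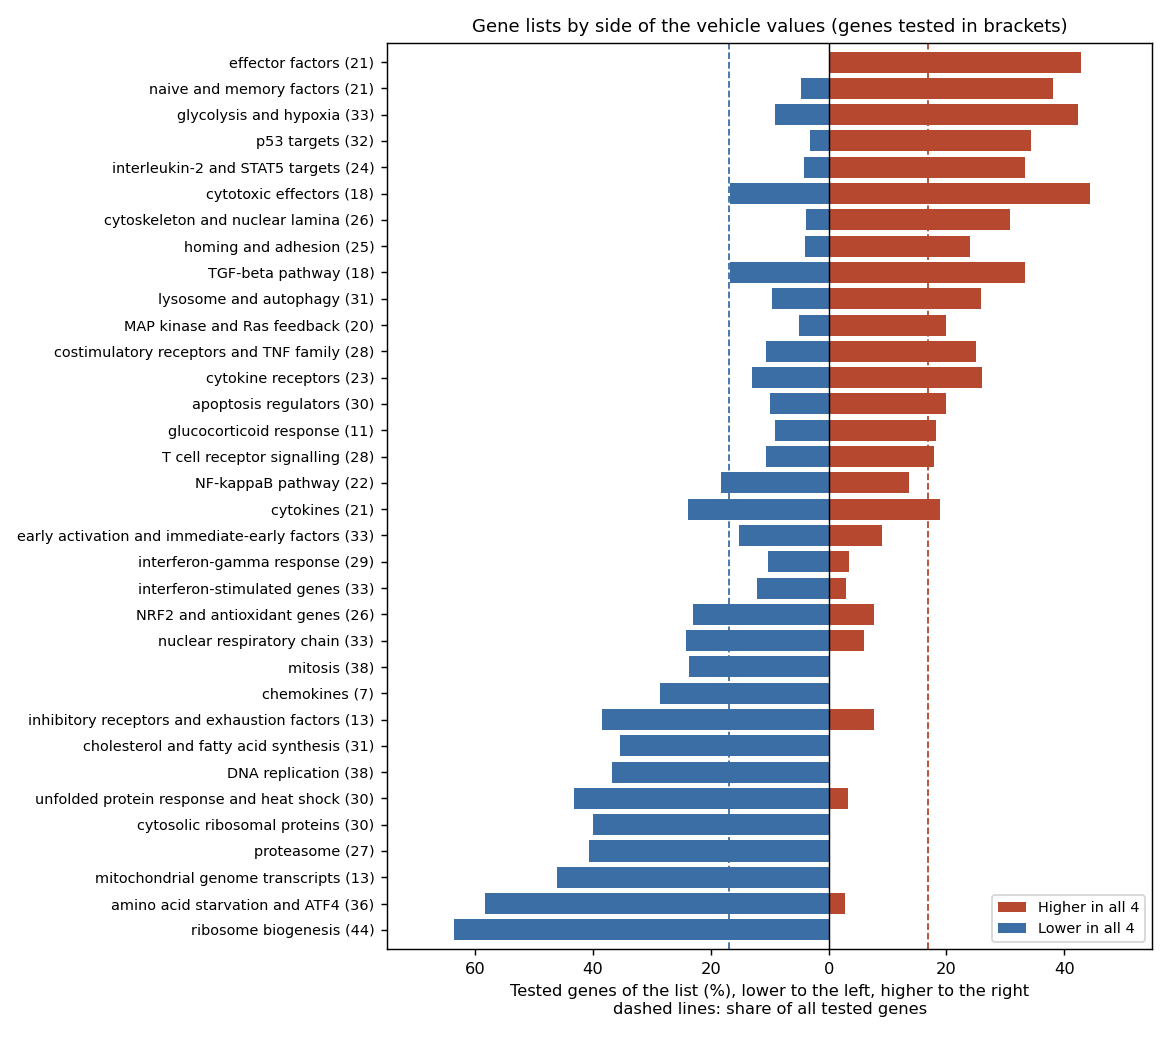
Share of each pathway list's tested genes that lay above (red, to the right) or below (blue, to the left) both vehicle values in all 4 co-culture libraries, with the number tested in brackets; dashed lines mark the shares of all tested genes, 16.9% and 17.0%. Ribosome biogenesis (63.6%) and amino acid starvation and ATF4 (58.3%) reach farthest to the left, and cytotoxic effectors and effector factors farthest to the right.

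On the higher side stood factors of effector cells and part of the interleukin-2 response. Of 21 effector factor genes 9 were higher and none lower (42.9%, against 16.9% of all tested genes). In 8 of the 21 (38.1%, against 11.7% of all tested genes) the smaller change was at least 0.1. Both TAN values lay above vehicle in 11 and below in 8, and both TAMo values above in 18 and below in 3. Prdm1, which encodes BLIMP-1, stood at 2.59 and 2.51 FPKM with vehicle, 5.01 and 5.04 FPKM with TAN and 3.76 and 3.45 FPKM with TAMo. Id2, an inhibitor of E proteins, stood at 15.3 and 16.7, 19.4 and 20.9, and 114 and 111 FPKM. Prdm1 was thus highest with TAN and Id2 with TAMo, and both differences passed the test (TAMo minus TAN -0.39 with adjusted p = 0.00125 and 2.42 with adjusted p = 1.17e-08, limma). Of 24 interleukin-2 and STAT5 targets 8 were higher and 1, Nrp1, lower (33.3% higher), with TAN above in 13 and below in 7 and TAMo above in 18 and below in 6. Il2ra, the alpha chain of the interleukin-2 receptor, stood at 296 and 300 FPKM with vehicle, 366 and 367 FPKM with TAN and 625 and 611 FPKM with TAMo. Ikzf2, Prdm1 and the cyclin gene Ccnd2 were the others with the largest smaller change, and Ccnd2 had log2 changes of 0.29 and 2.29.

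Of 21 naive and memory factors 8 were higher and 1, Id3, lower (38.1% higher). Both TAN values lay above vehicle in 9 of the 21 and below in 9, with a median TAN change of -0.002, and both TAMo values above in 19. Klf7 stood at 10 and 9.94 FPKM with vehicle, 16.5 and 16.3 FPKM with TAN and 14.4 and 13.7 FPKM with TAMo, and Foxo1, which maintains quiescence genes, at 11.3 and 10.9, 13.6 and 12.3, and 38.4 and 38.3 FPKM. Of 18 cytotoxic effector genes 8 were higher and 3 lower (44.4% and 16.7%), with TAN above in 9 and below in 7 and TAMo above in 13 and below in 5. Gzmc, a granzyme gene, stood at 1.70 and 1.71 FPKM with vehicle, 2.14 and 2.55 FPKM with TAN and 18.7 and 16.5 FPKM with TAMo, and Nkg7, a granule membrane protein gene, at 339 and 343, 410 and 409, and 700 and 686 FPKM. Granzyme genes are relatives, and whether their transcripts share reads was not tested. Gzmb was high everywhere and differed little, at 4312 and 4269 FPKM with vehicle, 4731 and 4681 FPKM with TAN and 4437 and 4348 FPKM with TAMo. The lower 3 were Prf1, Fasl and Ctsw. Prf1, the pore protein perforin, stood at 195 and 191, 177 and 175, and 24.2 and 23.6 FPKM.

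Of 33 glycolysis and hypoxia genes 14 were higher and 3 lower (42.4% higher), with TAN above in 21 and below in 7, TAMo above in 18 and below in 8, and median changes of 0.055 and 0.22. Hilpda, a lipid droplet protein induced by hypoxia, stood at 52.9 and 51.9 FPKM with vehicle, 71.2 and 65.2 FPKM with TAN and 253 and 249 FPKM with TAMo, and Ero1l had log2 changes of 0.31 and 0.34. Of 32 p53 targets 11 were higher and 1, Plk3, lower (34.4% higher). Cdkn1a, the cyclin-dependent kinase inhibitor p21, stood at 53.6 and 52.8 FPKM with vehicle and 73.9 and 71.2 FPKM with TAN, and at 1820 and 1803 FPKM with TAMo. Zmat3 stood at 3.49 and 3.16, 4.52 and 4.37, and 98.7 and 94.9 FPKM. In these 2 genes the TAMo minus TAN differences were 4.62 and 4.17 (limma adjusted p = 1.70e-10 and 1.49e-09). Both TAN values lay below both vehicle values in 14 of the 32 p53 targets and above in 11, against 33.3% and 30.8% of all tested genes. Both TAMo values lay above in 29 and below in 3, and the list's median change was -0.01 with TAN and 2.68 with TAMo. All 11 targets above vehicle with TAN were thus also above it with TAMo, and the TAN share above vehicle was near that of all tested genes.

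Of 18 TGF-beta pathway genes 6 were higher and 3 lower (33.3% higher). Both TAN values lay above vehicle in 6 and below in 5, near the 30.8% and 33.3% of all tested genes, with a median TAN change of 0.01, and both TAMo values above in 14. Tgfbr3, a co-receptor, stood at 2.08 and 2.07 FPKM with vehicle, 3.70 and 3.65 FPKM with TAN and 9.86 and 10.4 FPKM with TAMo, and Pmepa1, a feedback inhibitor of the pathway, at 4.84 and 4.71, 7.17 and 6.92, and 24.5 and 25 FPKM. Of 26 genes of cytoskeleton and nuclear lamina 8 were higher and 1, Lmnb2, lower (30.8% higher), with TAN above in 20 and below in 3 and TAMo above in 11 and below in 13. Beside Lmna and S100a6, S100a10 stood at 205 and 192, 304 and 298, and 400 and 404 FPKM, and the scaffold gene Ahnak at 25.2 and 26.4, 34.8 and 35.3, and 79.8 and 77.9 FPKM. In these genes TAN lay between vehicle and TAMo without overlap. Of 25 homing and adhesion genes 6 were higher and 1, Ccr6, lower (24.0% higher), among them the integrin gene Itgav with log2 changes of 0.32 and 2.66. TAN was above in 8 and below in 10 of the 25, and TAMo above in 22.

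**Figure D4:**
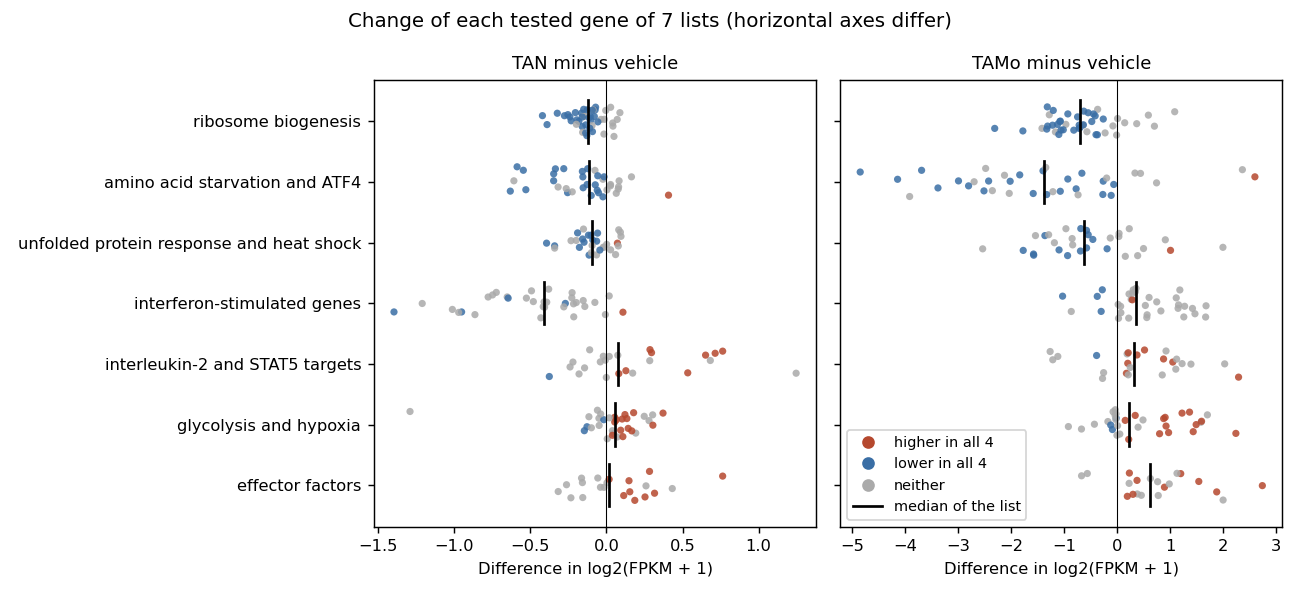
Difference from vehicle in log2(FPKM + 1) of each tested gene of 7 lists, with TAN on the left and TAMo on the right (the horizontal axes differ); colours show whether a gene lay above (red) or below (blue) vehicle in all 4 co-culture libraries or neither (grey), and black bars are list medians. The interferon-stimulated genes have a median of -0.41 with TAN and 0.36 with TAMo and are mostly grey.

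Cytokines, receptors and inhibitory molecules were divided. Of 21 cytokine genes 4 were higher and 5 lower (19.0% and 23.8%, near the background). Csf2, the gene of the growth factor GM-CSF, stood at 9.01 and 9.26 FPKM with vehicle, 6.15 and 5.13 FPKM with TAN and 6.45 and 5.49 FPKM with TAMo, with the co-culture values interleaved (difference 0.07, 95% interval -0.16 to 0.30). Il21 and Il22 were, with Il13 and Il6, the higher ones. Il21 stood at 0.930 and 0.737, 1.53 and 2.14, and 8.29 and 8.59 FPKM. Ifng was on neither shared side, with 677 and 683 FPKM with vehicle, 1126 and 1147 FPKM with TAN and 225 and 227 FPKM with TAMo, and neither was Il2, with 2.11 and 2.38, 0.682 and 0.390, and 17.7 and 17.5 FPKM. Tnf was lower with both, at 34.9 and 32.9, 30.3 and 29.4, and 19.8 and 18.8 FPKM. Both chemokine genes on a shared side of 7 tested, Xcl1 and Ccl3, were lower (28.6%, against 17.0% of all tested genes). Xcl1 stood at 36.0 and 33.7, 23.4 and 22.8, and 14.7 and 17.2 FPKM. TAN was below vehicle in 6 of the 7, whereas TAMo was above in 5 and below in 2.

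Of 13 inhibitory receptor and exhaustion genes 5 were lower and 1, Cd200r1, higher (38.5% lower, where 17.0% of all tested genes were lower and 16.9% higher). Both TAN values lay below vehicle in 8 of the 13 and above in 3. Both TAMo values were divided, below in 7 and above in 6. Pdcd1, which encodes PD-1, stood at 63.7 and 60.4 FPKM with vehicle, 48.1 and 46.7 FPKM with TAN and 28.0 and 27.9 FPKM with TAMo, and Cd160 at 10 and 11.1, 6.89 and 6.42, and 4.77 and 4.33 FPKM. Ctla4, another inhibitory receptor gene, was on neither side, with 436 and 447, 722 and 735, and 219 and 226 FPKM. Of 28 costimulatory receptor and TNF family genes 7 were higher and 3 lower (25% higher), with TAN above in 9 and below in 15 and TAMo above in 22. Icos, an inducible costimulator, stood at 43.4 and 45.2 FPKM with vehicle, 64.8 and 65.5 FPKM with TAN and 71.3 and 68.8 FPKM with TAMo, and Cd40lg at 3.21 and 3.34, 6.68 and 5.93, and 4.42 and 5.09 FPKM. Of 23 cytokine receptor genes 6 were higher and 3 lower (26.1% higher), with TAN above in 7 and below in 10 and TAMo above in 16. Il12rb2, a chain of the interleukin-12 receptor, stood at 71.1 and 71.4, 94.2 and 94.7, and 259 and 257 FPKM, and Il23r, of the interleukin-23 receptor, at 1.27 and 1.35, 3.28 and 3.11, and 2.77 and 2.39 FPKM.

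The interferon lists were not shared. Of 33 interferon-stimulated genes 4 were lower and 1, Samhd1, higher in all 4 (12.1% and 3.03%, against 17.0% and 16.9% of all tested genes). Both TAN values lay below vehicle in 30 of the 33, as in 33.3% of all tested genes, while both TAMo values lay above vehicle in 23, as in 49.0% of all. The lower 4 were Isg15, Oasl2, Ifih1 and Bst2. Ifih1, a sensor of viral RNA, stood at 3.52 and 4.02 FPKM with vehicle, 1.93 and 2.16 FPKM with TAN and 2.71 and 3.14 FPKM with TAMo, and Bst2, the virus tether tetherin, at 255 and 263, 218 and 212, and 205 and 194 FPKM. Of 29 interferon-gamma response genes 3 were lower, Irf8, Serpina3g and Psmb8, and 1, Socs1, was higher. TAN was below in 25 of the 29 and above in 1, and TAMo above in 22 and below in 4. Of 33 early activation genes 5 were lower and 3 higher (15.2% and 9.09%). Most of this list went opposite ways: both TAN values lay below vehicle in 23 and above in 4, and both TAMo values above in 24 and below in 8. Egr1, an immediate-early factor gene, stood at 13.4 and 13.3, 7.5 and 6.79, and 10.3 and 9.80 FPKM, and Ier2 at 121 and 112, 85.4 and 84.5, and 61.6 and 65.0 FPKM. In Egr1, unlike in most genes on a shared side, TAN was farther from vehicle (TAMo minus TAN 0.44, limma adjusted p = 0.000304).

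The other pathway lists had between 5% and 25.8% of their genes on either shared side, where all tested genes had 16.9% higher and 17.0% lower. Of 28 T cell receptor signalling genes 5 were higher and 3 lower, among the latter Cd8a with log2 changes of -0.13 and -0.64. Of 31 lysosome and autophagy genes 8 were higher and 3 lower, of 30 apoptosis genes 6 and 3, of 22 NF-kappaB genes 3 and 4, of 26 NRF2 and antioxidant genes 2 and 6, of 33 nuclear respiratory chain genes 2 and 8, of 20 MAP kinase and Ras feedback genes 4 and 1, and of 11 glucocorticoid response genes 2 and 1. Among NF-kappaB genes TAN was below vehicle in 18 and above in 3, and TAMo above in 18 and below in 4. Among MAP kinase and Ras feedback genes TAN was below in 13 and above in 4, and TAMo above in 18 and below in 1. Among T cell receptor signalling genes TAN was below in 15 and above in 6, and TAMo above in 22 and below in 5. Sgk1, a kinase gene induced by glucocorticoids, had log2 changes of 0.57 and 0.70. Cd4 and regulatory T cell markers gave 3 higher of 6 tested (50.0%, against 16.9% of all tested genes), Cd40lg, Ikzf2 and Il2ra, all of which activated CD8+ T cells also express. Of 7 tested dendritic cell and class II genes 3 were lower (42.9%, against 17.0% of all tested genes) and 1 was higher. Cd74, the invariant chain gene, stood at 34.8 and 36.0, 24.9 and 23.8, and 14.9 and 14.1 FPKM. Klrk1, which CD8+ T cells also carry, was the 1 of 4 tested NK cell markers on a shared side. The B cell markers summed to 7.62 to 10.7 FPKM over all libraries, the erythroid and platelet markers to 0.943 to 2.49 and the epithelial and tumour markers to 0.608 to 0.937. NK cell markers summed to 78.2 and 81.3 FPKM with vehicle, 62.8 and 59.0 with TAN and 109 and 108 with TAMo. The part of other cells in these values was not tested. Of 7 tested monocyte and macrophage markers Ms4a6c and Vcan were higher and Apoe and Nos2 lower.

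Genes on the 2 shared sides also differed in length and base composition, which the rule did not use, and in their level with vehicle. The median length of the longest transcript was 4167 bases in higher genes, 2982 in lower genes and 3298 in all tested genes, and the median GC content 47.6%, 52.5% and 49.7%, over 99.1%, 99.3% and 99.2% of the genes. Median expression with vehicle was 12.1, 32.6 and 15.7 FPKM. Lower genes were thus shorter and richer in GC than higher genes. They were also more abundant with vehicle, but the rule used the vehicle values, so this difference may follow from the choice of genes. FPKM summed to 628328 to 630749 in vehicle and TAN libraries and to 546324 and 548039 in TAMo libraries. The part of length, GC content and library composition in the sides was not tested.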

How the data were processed

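RNA of OT-I CD8+ T cells was sequenced in 6 libraries, 2 each of vehicle, TAN and TAMo co-culture. The deposited values are FPKM per gene, which the authors computed. The submitters' processing notes name build mm10 and the tools featureCounts 1.5.0-p3, HISAT2 2.0.5 and CASAVA, without their roles. The annotation, strandedness and gene lengths behind FPKM are not stated, so overlapping genes on opposite strands and close copies may share reads. FPKM shows shares of a library, not amounts per cell. Per the labels' protocols RNA was isolated with Trizol and libraries were made with a TruSeq kit. Columns were matched to samples by the labels.

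Genes reaching 1 FPKM in 2 or more libraries were kept and assigned to a side by their deposited values, with no rescaling. One limma model (limma 3.58.1, R 4.3.3; eBayes with a mean-variance trend, 3 residual and 4.07 prior degrees of freedom) over all 6 libraries on log2(FPKM + 1) gave the changes, their standard errors and the TAMo against TAN test, two-sided, with Benjamini-Hochberg adjustment over 10727 genes. The fit was tested on simulated data. A fold is a ratio of mean FPKM. Depth was read from genes with 1 transcript, in which 98.8% to 99.0% of values up to 40 reads were whole within 0.1. Symbols were matched to GENCODE M21 (GRCm38, the assembly of mm10) for 25295 genes, promoters came from RefSeq, and copies were sought with blastn in 32 leading or alike genes (at least 95% identity over 150 bases; 5 had one). The 34 pathway and 9 marker lists, the members and the rule were chosen with earlier results of these data known. Genes to be named were the 15 higher and 15 lower with the largest smaller change and a group mean of 5 FPKM or more, the 6 most alike, up to 4 per list, a panel of 15 functional genes and those at the edges of the rule. Of the panel, Cd69, Tcf7 and Mki67 are not described above. Exceptions within lists, Atf4 and genes named for other counts were chosen after their values were seen. Alternatives were another filter, pseudocount, scaling, gap, variance model, replicate block, and each library left out. The result for 1 marker gene is not reported here.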

Additional observations from a re-analysis of the deposited data

How the results depend on the processing

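The counts of genes on each shared side, of genes farther from vehicle with 1 partner, and of the 13 pathway lists followed stayed within 1.5 times their value under the other filters and scalings, pseudocounts and variance models where a fit is involved, and without any 1 library (the mitochondrial list has no value with its transcripts removed). The exceptions were required gaps, which make the rule stricter: a gap of at least 0.1 gave 760 higher and 739 lower genes, with TAMo farther in 1189 and TAN in 32, and a gap of at least 0.5 gave 26 and 25, with 34 and 5. Leaving out a library only loosens the rule and gave 1868 to 2458 higher and 1888 to 2357 lower genes. All 30 leading genes kept their side under median-of-ratios scaling, quantile normalisation and removal of mitochondrial transcripts, and 3480, 3390 and 3481 of the 3643 genes did, while 3 changed side under quantile normalisation. Among leading and alike genes the TAMo against TAN call was lost for Dapl1 (adjusted p = 0.138), Klrk1 (0.107) and Mndal (0.0592) with mitochondrial transcripts removed, and for the same 3 with no filter on low values (0.0603, 0.0601 and 0.0646). It was also lost for Dapl1 without TAN replicate 1 (0.0708) or 2 (0.0596), for Klrk1 without TAN replicate 1 (0.116) or TAMo replicate 1 (0.0932) and for Mndal without TAN replicate 1 (0.108) or TAMo replicate 2 (0.0718). It was gained for Mt2 under median-of-ratios scaling (0.0372) and, as for Sarnp, without either or both vehicle libraries (0.0290 to 0.0293 and 0.0406 to 0.0417), and for Ddit3 without TAMo replicate 1 (0.0242). With a replicate block TAMo was farther in 2956 genes and TAN in 88, and it changed none of these single-gene calls. The numbers do not pair the samples: deviations of same-numbered libraries correlated at 0.057, 0.024 and 0.008 across genes. Depth is known only from low values, and 2 libraries per group limit the errors.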
